A study of Mus musculus with 20 samples.

Results

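The inner root sheath is the sleeve of cells that surrounds and shapes a growing hair. Its keratins and its granule protein trichohyalin were followed through 20 RNA-seq libraries of sorted mouse skin cells, with 8 genes chosen by name: the type I keratins Krt25, Krt26, Krt27 and Krt28, the type II keratins Krt71, Krt72 and Krt73, and Tchh, which encodes trichohyalin. All 8 had a row in the deposited table of 51123 gene identifiers, and all 8 passed the filter on low counts in the fit of 20 libraries, as did 18164 genes in all. Krt25 to Krt28 lie on chromosome 11, Krt71 to Krt73 on chromosome 15 and Tchh on chromosome 3.

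Cells positive for the tdTomato reporter had been sorted from 7 groups of mice. DKO cSCC (n = 3) and PKO cSCC (n = 3) were spontaneous cutaneous squamous cell carcinomas, from mice with K14cre and floxed alleles of both Wwox and p53 or of p53 alone. Young DKO, young PKO and young WKO (n = 3 each) were epidermis of mice 100 to 120 days old with K14cre and floxed alleles of both genes, of p53 alone or of Wwox alone. Old WT (n = 2) was wild-type epidermis of mice aged 400 days or more, and young WT (n = 3) was wild-type epidermis at 100 to 120 days. Ages of mice with carcinomas are not among the labels, nor is the source of Cre and of the reporter in the wild-type animals. K14cre is driven by a keratin 14 promoter, which acts in the epidermis and its appendages, hair follicles included. Samples within a group are labelled as biological replicates.

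Hair follicles cycle through growth, regression and rest, and the inner root sheath is built anew from the matrix of the bulb in each growth phase. Type I and type II keratins pair as obligate partners into filaments. Trichohyalin first gathers in granules in these cells, and peptidylarginine deiminases and transglutaminases then modify it and crosslink it to the filaments, which hardens the sheath. In human follicles KRT25, KRT27, KRT28 and KRT71 are known from all layers of the sheath, KRT26, KRT72 and KRT73 chiefly from its cuticle, and mouse mutations of Krt25 or Krt71 give a wavy coat. Trichohyalin is also made in the hair medulla and in a few other keratinised epithelia.

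Total counts ranged from 11930153 to 17199262 per library, and mitochondrial ribosomal RNA took 15% to 40.9% of them. Wwox and Trp53 levels went against the labels in several libraries. The library labelled DKO cSCC 3 held 45.5 CPM (the count scaled by library size) of Trp53, against 2.74 and 2.86 CPM in DKO cSCC 1 and 2, and the library labelled young DKO 3 held 7.34 CPM of Wwox and 21.1 CPM of Trp53, against 0.926 and 0.944 CPM of Wwox in young DKO 1 and 2. The libraries labelled young PKO 2 and young PKO 3 held 21.8 and 19.2 CPM of Trp53, against 5.9 CPM in young PKO 1. Calls that rest on these 4 libraries are also given without them. Markers of basal keratinocytes were present in every library (6 of 6 genes), but their summed level was 1216 to 2066 CPM in young WT, below the 7484 to 15095 CPM of the other young libraries apart from the library labelled young PKO 3, which held 2165 CPM. Old WT 1 and 2 held 6832 and 2166 CPM.

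Log2 levels of Krt25, Krt28, Krt71 and Tchh correlated over the 20 libraries (Pearson r 0.85 to 0.98 between pairs). Any part of the upstream sequence in this was not tested. The 100 bases before the annotated start of these 4 members are printed, and 3 of the 4 share a feature there. They come from RefSeq promoters of build GRCm38.p6, not the build named in the submitters' notes (mm39), and are written 5′ to 3′ on the gene's strand with TATAAA in capitals. They are Krt25 (chr11:99322952-99323051, minus strand), Krt28 (chr11:99374904-99375003, minus strand), Krt71 (chr15:101743098-101743197, minus strand) and Tchh (chr3:93442230-93442329, plus strand).
Krt25: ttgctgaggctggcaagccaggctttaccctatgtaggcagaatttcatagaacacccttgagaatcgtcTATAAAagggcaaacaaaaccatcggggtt
Krt28: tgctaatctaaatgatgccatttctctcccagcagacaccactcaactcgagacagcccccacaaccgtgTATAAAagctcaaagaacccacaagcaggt
Krt71: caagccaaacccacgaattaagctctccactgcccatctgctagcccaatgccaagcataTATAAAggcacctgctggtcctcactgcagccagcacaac
Tchh: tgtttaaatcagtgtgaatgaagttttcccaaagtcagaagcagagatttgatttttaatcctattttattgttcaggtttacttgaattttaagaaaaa
TATAAA, the core of the TATA box, was searched on the gene's strand within the 50 bases before the start. It was found in 6 of the 8 members (Krt25, Krt26, Krt27, Krt28, Krt71 and Krt73) and in 2.63% of 32851 annotated mouse promoters. The motif began 30 bases before the start in 4 of them, 40 bases before it in Krt71 and 15 bases before it in Krt27, while Krt72 and Tchh had no such letters in that window. For Krt72 alone, the bases checked after the start were not found in a GENCODE transcript of the gene. Its window may therefore not be the one before its true start. AGATAA, a form of the GATA factor motif, was searched on both strands of the 250 bases before the start and was present in 5 of 8 members, against 9.99% of all promoters. TAATT, the core of many homeodomain motifs, was present on either strand in 7 of 8 members, against 25% of all promoters. Matches of different motifs were counted whether or not they shared bases, and a match describes the letters only.

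Among the 28 pairs of members, the highest-scoring local alignment of these upstream regions was that of Krt71 and Krt73. It ran over 158 columns, of which 108 (68.35%) were identical, and is printed because these type II genes, with Krt72 between them on the chromosome, are the pair whose ratio is followed in the carcinomas. Capitals mark letters that match the partner, in GRCm38.p6 on the minus strand, at chr15:101743175-101743327 for Krt71 and chr15:101802409-101802547 for Krt73.
Krt71: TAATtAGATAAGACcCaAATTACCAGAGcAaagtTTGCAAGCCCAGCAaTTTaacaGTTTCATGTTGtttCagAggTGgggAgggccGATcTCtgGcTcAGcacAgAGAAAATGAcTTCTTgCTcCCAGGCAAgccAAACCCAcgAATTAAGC
Krt73: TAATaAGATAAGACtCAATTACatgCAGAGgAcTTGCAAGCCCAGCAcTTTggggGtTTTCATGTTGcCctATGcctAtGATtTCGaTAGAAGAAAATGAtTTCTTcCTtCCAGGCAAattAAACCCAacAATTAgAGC
The stretch opens in each gene with a TAAT and an AGATAA a single base apart, and it ends 78 bases before the start of Krt71 and 49 bases before that of Krt73.

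Between 5 and 8 of the 8 genes had at least 1 count in each library, and their summed level varied over a wide range. The 8 genes summed to 141 ± 41.6 CPM in DKO cSCC and 43 ± 15.1 CPM in PKO cSCC (SD, n = 3 each). In young epidermis the sums were 350 ± 229 CPM in DKO, 677 ± 603 CPM in PKO and 393 ± 290 CPM in WKO (SD, n = 3 each), beside 289 ± 238 CPM in old WT (SD, n = 2) and 1095 ± 609 CPM in young WT (SD, n = 3). Single libraries stood apart within groups: young PKO 3 lay far above young PKO 1 and 2, young WKO 3 far below young WKO 1 and 2, and young WT 1 below young WT 2 and 3. In bulk RNA, fewer inner root sheath cells and less of these transcripts per cell cannot be told apart.

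**Figure D1:**
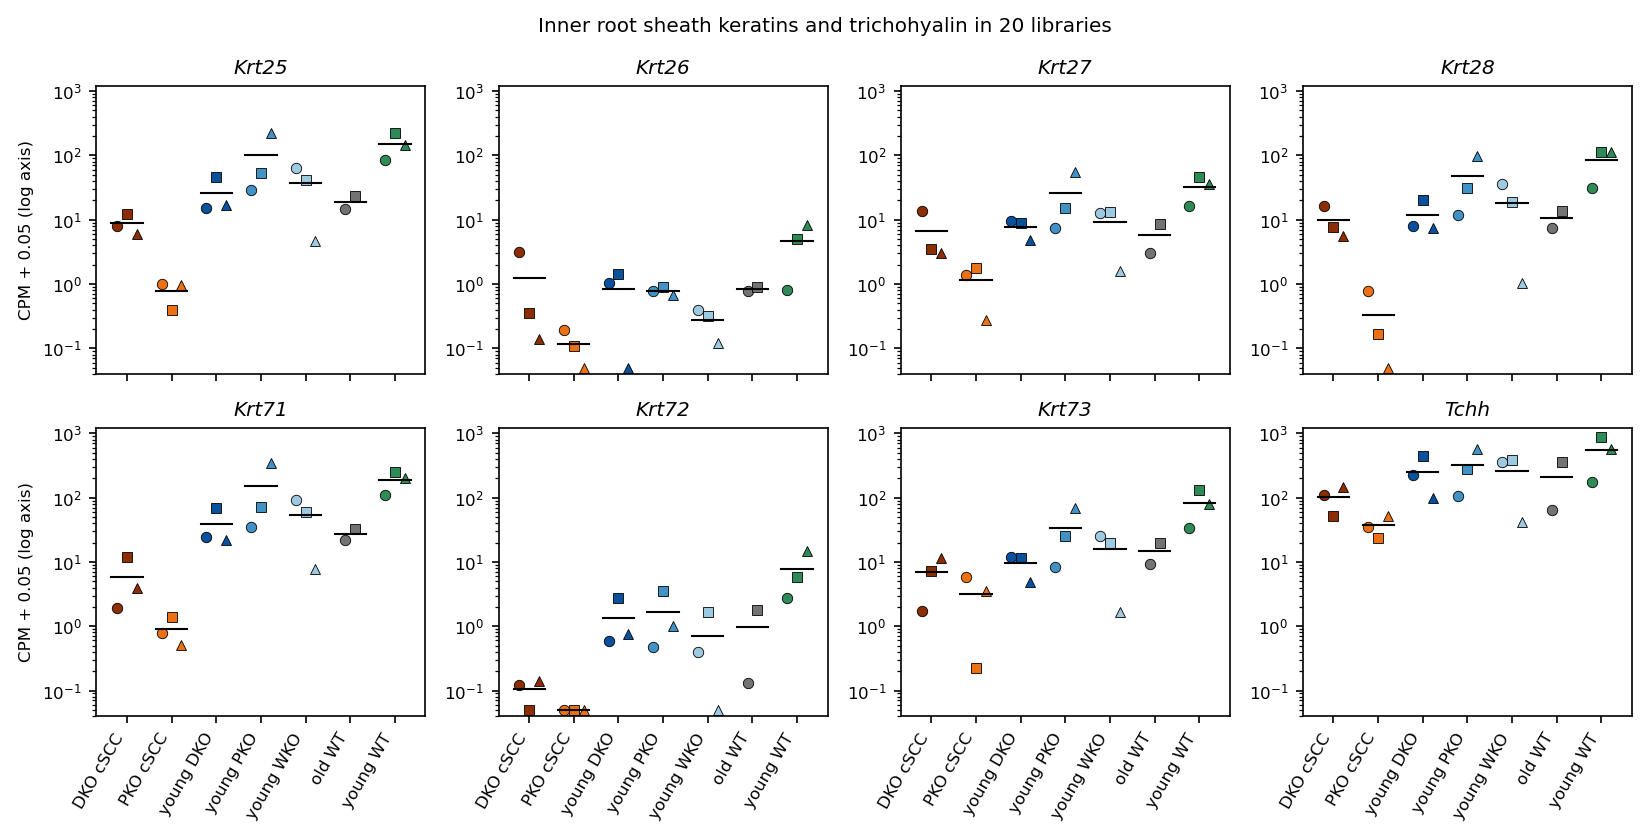
Level of each of the 8 genes in the 20 libraries, as CPM plus 0.05 on a log axis; circles, squares and triangles are libraries 1, 2 and 3 of a group and the line is the group mean. The 3 PKO cSCC libraries lie lowest for Krt25, Krt28 and Krt71, and the young WT libraries have the highest group mean in each panel.

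Krt25 is a type I keratin of all sheath layers. It was at 7.85, 12.2 and 5.98 CPM in DKO cSCC and at 0.95, 0.348 and 0.922 CPM in PKO cSCC, so that the carcinoma groups did not overlap. Among young libraries it was at 15.2, 46.2 and 17.1 CPM in DKO, 28.7, 53.7 and 219 CPM in PKO and 63.4, 41.6 and 4.64 CPM in WKO. It was at 14.5 and 23 CPM in old WT and at 83.6, 220 and 143 CPM in young WT. From low to high mean, the order was PKO cSCC, DKO cSCC, old WT, young DKO, young WKO, young PKO and young WT, and each neighbouring pair from old WT upward overlapped.

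Krt28, a type I partner of the same layers, was at 16.5, 7.58 and 5.45 CPM in DKO cSCC and at 0.73, 0.116 and 0 CPM in PKO cSCC. Its mean was 11.9 CPM in young DKO, 47 CPM in young PKO, 18.4 CPM in young WKO and 10.4 CPM in old WT, against 85.6 CPM in young WT. The DKO cSCC libraries overlapped those of young DKO and old WT, while all PKO cSCC libraries lay below every other library, the nearest being young WKO 3 at 0.999 CPM. Krt27, also type I, was at 13.4, 3.48 and 2.95 CPM in DKO cSCC and at 1.31, 1.74 and 0.231 CPM in PKO cSCC, and its means elsewhere ran between 5.7 CPM in old WT and 32.8 CPM in young WT.

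Krt26, a type I keratin of the sheath cuticle, was the type I gene with the lowest counts. It had 42, 4 and 1 counts in DKO cSCC and 2, 1 and 0 counts in PKO cSCC. It had 15, 19 and 0 counts in young DKO, 12, 10 and 13 in young PKO and 5, 4 and 1 in young WKO, against 14, 74 and 147 counts in young WT. DKO cSCC 1, at 3.11 CPM, was the highest library outside young WT, followed by young DKO 2 at 1.38 CPM.

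Krt71, the type II keratin of the list with the highest mean in every epidermis group, was at 1.85, 11.8 and 3.84 CPM in DKO cSCC and at 0.73, 1.33 and 0.461 CPM in PKO cSCC. Young epidermis held 24.1, 69 and 21.6 CPM in DKO, 35.2, 71 and 343 CPM in PKO and 92.2, 59.4 and 7.63 CPM in WKO. It was at 21.8 and 32.8 CPM in old WT and at 108, 252 and 200 CPM in young WT. Neither carcinoma group overlapped old WT, and young WKO 3 was the only epidermis library inside the range of a carcinoma group.

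Krt73, a type II cuticle keratin, was spread differently in the carcinomas. It was at 1.7, 7.11 and 11.6 CPM in DKO cSCC and at 5.84, 0.174 and 3.46 CPM in PKO cSCC, and the groups overlapped. Its means were 9.48 CPM in young DKO, 33.8 CPM in young PKO, 15.6 CPM in young WKO and 14.6 CPM in old WT, against 81.4 CPM in young WT. Krt72, the other type II cuticle keratin, had 1, 0 and 1 counts in DKO cSCC and 0 in all 3 PKO cSCC libraries, where 3 counts over the group would be 0.0621 CPM. It had 50, 84 and 259 counts in young WT and between 0 and 41 in every other epidermis library.

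Tchh gave most of the summed counts of the 8 genes in every library except young PKO 3, young WT 1 and young WT 3. It was at 111, 52 and 144 CPM in DKO cSCC and at 34.5, 23.6 and 52.4 CPM in PKO cSCC, with a slight overlap between PKO cSCC 3 and DKO cSCC 2. It was at 222, 442 and 97.9 CPM in young DKO, 107, 276 and 570 CPM in young PKO and 355, 380 and 42.2 CPM in young WKO. It was at 64.4 and 357 CPM in old WT and at 175, 887 and 579 CPM in young WT. Every group overlapped the next in the order of means.

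Per kilobase of the longest annotated transcript, which allows genes to be compared, the level in young WT ran from Tchh at 93.9 CPM per kb through Krt71 (85.5), Krt25 (74.9), Krt28 (52.7), Krt73 (37.6) and Krt27 (21.1) to Krt72 (3.94) and Krt26 (1.28). Transcript lengths were 5823 bases for Tchh and 2186 for Krt71, and coding lengths 4797 and 1572. The order of genes at close levels depends on which length is used. In PKO cSCC the order of levels per kilobase was Tchh (6.33 CPM per kb), Krt73 (1.46), Krt27 (0.707), Krt71 (0.385), Krt25 (0.372), Krt28 (0.174) and Krt26 (0.0186). The ratio of Tchh to the 7 keratins, both per kilobase, was 0.409 to 1.6 in DKO cSCC, 1.22 to 3.72 in PKO cSCC and 0.217 to 0.39 in young WT. It was 0.585 to 1.07 in young DKO, 0.248 to 0.465 in young PKO, 0.527 to 0.882 in young WKO and 0.392 and 1.21 in the old WT libraries. Every other group but young PKO therefore lay above young WT in this ratio, old WT 1 only just, at 0.392. PKO cSCC overlapped DKO cSCC.

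The split between type I and type II genes varied little in epidermis, whatever the summed level of the 7 keratins. Type I genes gave 44% to 52.6% of the keratin counts in each of the 14 epidermis libraries. The shares of single genes varied as well: Krt25 gave 21.6% to 30.9%, Krt71 32.6% to 46.1%, Krt73 7.2% to 19.9%, Krt28 6.03% to 19% and Krt27 5.21% to 13.4%. In the carcinomas the share of type I was 91.8%, 55.5% and 48.2% in DKO cSCC 1, 2 and 3 and 32.3%, 60% and 22.7% in PKO cSCC 1, 2 and 3. The exact 95% binomial interval was 89.4% to 93.9% for DKO cSCC 1, from 601 counts, and 14.5% to 32.9% for PKO cSCC 3, from 88 counts. These intervals cover counting error only.

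Single pairs of genes also spread widely among tumours. Krt73 made up 14.3% to 37.8% of the sum of Krt71 and Krt73 in epidermis. It made up 47.9%, 37.6% and 75.1% of that sum in DKO cSCC 1, 2 and 3, and 88.9%, 11.5% and 88.2% in PKO cSCC 1, 2 and 3. The interval was 80.5% to 94.5% for PKO cSCC 1, from 90 counts, and 2.45% to 30.2% for PKO cSCC 2, from 26 counts. Krt27 made up 16.2% to 38.3% of the sum of Krt25 and Krt27 in epidermis, but 63.1% in DKO cSCC 1, 58.1% in PKO cSCC 1 and 83.3% in PKO cSCC 2, against 22.2% and 33% in DKO cSCC 2 and 3 and 20% in PKO cSCC 3.

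**Figure D2:**
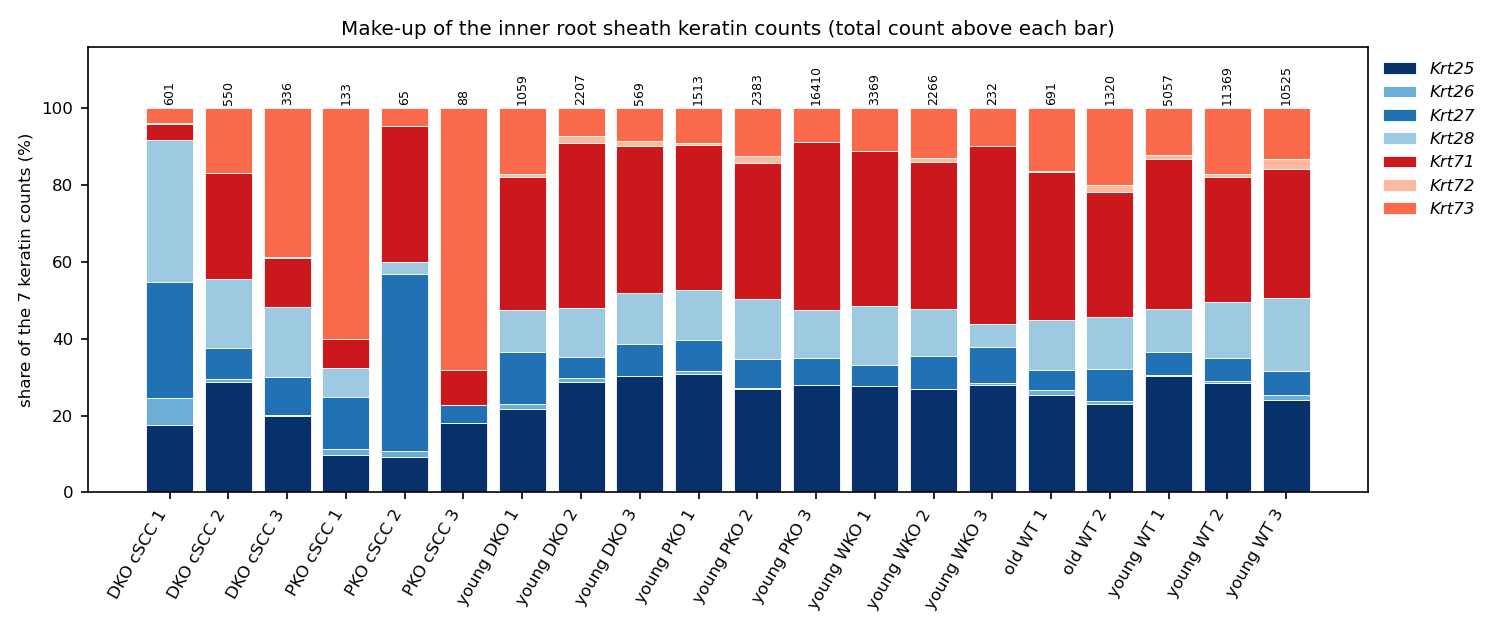
Share of each keratin in the summed count of the 7 inner root sheath keratins, in percent, by library; type I genes are blue, type II genes are red, and the number above a bar is its total count. The type I total of the 14 epidermis bars lies between 44% and 52.6%, while that of the 6 carcinoma bars lies between 22.7% and 91.8%.

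Every member tested had a higher fitted level in DKO carcinomas than in PKO carcinomas, but none passed the threshold. Krt72 did not pass the filter on low counts in the fit of carcinomas and old WT. Of 7 members tested in DKO cSCC against PKO cSCC, 7 had a positive log2 fold change and 0 had an edgeR adjusted p under 0.05, as against 0.00605% of all 16526 genes called higher. The log2 fold change was 3.50 (SE 0.53, adjusted p = 0.502) for Krt25, 5.13 (SE 1.14, adjusted p = 0.608) for Krt28, 3.99 (SE 1.51) for Krt26, 2.71 (SE 0.74) for Krt71 and 2.55 (SE 0.93) for Krt27. It was 1.41 (SE 0.64) for Tchh and 1.06 (SE 1.05) for Krt73. The median over the 7 was 2.71, beside -0.03 over all genes. For 4 members (Krt25, Krt27, Krt28, Krt71) the DKO cSCC libraries lay above the PKO cSCC libraries with no overlap, as did 7.46% of all genes tested. At an unadjusted p under 0.05 there were 5 members and 4.88% of all genes higher, and DESeq2 called Krt25, Krt28 and Krt71. The share of all genes that DESeq2 called is not given here, so its calls in this and later comparisons have no background beside them. Without the library labelled DKO cSCC 3 the log2 fold change was 3.72 for Krt25, 5.43 for Krt28, 4.54 for Krt26, 2.95 for Krt71 and 2.92 for Krt27, but 1.11 for Tchh and 0.46 for Krt73. Without DKO cSCC 1 it was 1.47 for Krt26 and 1.48 for Krt27, and without DKO cSCC 2 it was 1.67 for Krt71.

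Against old WT epidermis, the PKO carcinomas lay below for every member tested. All 7 log2 fold changes were negative with no overlap of the groups (23% of all genes tested lay below with no overlap), but 0 of 7 passed the threshold in edgeR, beside 0.00605% of 16526 genes. Krt25 came nearest, with a log2 fold change of -4.57 (SE 0.57) and an adjusted p of 0.05, which did not fall below the threshold. It did so without PKO cSCC 2, at an adjusted p of 0.0465. Krt71 was at -4.92 (SE 0.83, adjusted p = 0.0526), Krt28 at -5.17 (SE 1.18, adjusted p = 0.0659) and Tchh at -2.42 (SE 0.71, adjusted p = 0.093). Without old WT 2, Tchh was at -0.72 and Krt27, at -2.28 in the full fit, at -1.35. The median over the 7 members was -3.37, beside 0.06 over all genes. At an unadjusted p under 0.05 there were 5 members, beside 13.1% of all genes, and DESeq2 called 4 (Krt25, Krt28, Krt71 and Tchh). Without the library labelled DKO cSCC 3, which shares the fit, Krt25 and Krt71 had adjusted p of 0.0418 and 0.0419.

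In DKO carcinomas against old WT, 0 of the 7 members tested were called by edgeR, as were 0% of all genes, and 5 had negative and 2 positive log2 fold changes. Krt71 was at -2.20 (SE 0.75, adjusted p = 0.279) and Krt25 at -1.08 (SE 0.51, adjusted p = 0.372), both with no overlap, which held for 16.9% of all genes in that direction. Krt28 was at -0.04 (SE 1.03), Krt27 at 0.27 (SE 0.98) and Tchh at -1.01 (SE 0.70), each less than 2 SE from 0. At an unadjusted p under 0.05 there was 1 member (Krt71), beside 6.25% of all genes lower, and DESeq2 called 0. Without the library labelled DKO cSCC 3, Krt71 was at -1.97 (adjusted p = 0.269), Tchh at -1.32 (adjusted p = 0.392) and Krt73, at -1.09 in the full fit, at -1.70 (adjusted p = 0.494). Both carcinoma groups are set against the same 2 old WT libraries, whose Tchh levels of 64.4 and 357 CPM lay far apart.

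Relative to young epidermis of their own genotype label, PKO carcinomas had lower levels of most sheath genes. In PKO cSCC against young PKO, 6 of 8 members fell, as did 6.16% of 18164 genes tested. All 8 lay below young PKO with no overlap, as did 12.3% of all genes. The log2 fold change was -7.08 (SE 1.05, edgeR adjusted p = 0.00259) for Krt25, -7.46 (SE 1.18, adjusted p = 0.00321) for Krt71, -7.45 (SE 1.37, adjusted p = 0.00572) for Krt28, -4.57 (SE 1.01, adjusted p = 0.0121) for Krt27 and -3.11 (SE 0.91, adjusted p = 0.0385) for Tchh. Krt72, at 0 in all PKO cSCC libraries, was at least 25.9-fold lower (3 counts over the group against a young PKO mean of 1.61 CPM, adjusted p = 0.0294), or at least 11.2-fold lower without young PKO 2 and 6.93-fold lower than young PKO 1 alone. Krt73 (-3.43, adjusted p = 0.0558) and Krt26 (-3.34, adjusted p = 0.134) did not pass. The median over the 8 was -5.82, beside -0.02 over all genes.

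The size of these differences depended on the libraries labelled young PKO 2 and 3. Without them and the other libraries against their labels, which leaves young PKO 1 alone and assumes that it varies like the other groups, Krt25 was at -5.28 (adjusted p = 0.0269) and Krt71 at -5.38 (adjusted p = 0.0364). Krt28 (-5.50, adjusted p = 0.0748), Krt27 (-2.79, adjusted p = 0.186), Krt72 (adjusted p = 0.267) and Tchh (-1.53, adjusted p = 0.453) then lost the call. The Tchh call was also lost without any single one of PKO cSCC 1, 2 and 3 and young PKO 2 and 3 (adjusted p 0.0675 to 0.121), and that of Krt72 without any one of PKO cSCC 1, 2 and 3 and young PKO 2 (adjusted p 0.0605 to 0.0802). In a fit of those 2 groups alone 0 members were called, with adjusted p of 0.0648 to 0.0981 for Krt25, Krt27, Krt28, Krt71 and Tchh.

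In DKO cSCC against young DKO, 7 of 8 fitted values were negative and 0 members were called, beside 4.03% of all genes called lower. The log2 fold change was -2.71 (SE 0.94, edgeR adjusted p = 0.0877) for Krt71, -4.41 (SE 1.62, adjusted p = 0.111) for Krt72 and -1.59 (SE 0.81, adjusted p = 0.24) for Krt25, and these 3 had no overlap, as did 16% of all genes in that direction. Krt28 was at -0.27 (SE 0.98), Krt27 at -0.22 (SE 0.87) and Krt73 at -0.49 (SE 1.02). At an unadjusted p under 0.05 there were 2 members, beside 12.2% of all genes, and DESeq2 called 2, Krt71 and Krt72. With DKO cSCC 3, young DKO 3 and the other libraries against their labels left out, Krt71 was at -2.79 (adjusted p = 0.115), Tchh at -2.05 (adjusted p = 0.234) and Krt73 at -1.44 (adjusted p = 0.491).

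Whether the DKO against PKO difference itself differed between carcinoma and young epidermis was tested in the fit of 20 libraries. The log2 fold change of Krt28 was 5.20 between the carcinomas and -1.98 between the young groups, a difference of 7.18 (SE 1.64, edgeR adjusted p = 0.168). For Krt25 it was 3.55 between the carcinomas and -1.94 between the young groups, a difference of 5.49 (SE 1.24, adjusted p = 0.168). The difference was positive for all 8 members and passed the threshold for 0 of them, as for 0% of 18164 genes. The share of all genes at an unadjusted p under 0.05 is not given for this test, so no count of members is read from it. Without the 4 libraries against their labels, which leaves young PKO 1 as the only young PKO library, it was 5.26 for Krt28 (SE 1.90, adjusted p = 0.417), 3.64 for Krt25 (SE 1.35, adjusted p = 0.431), -0.01 for Krt73 and -0.52 for Tchh.

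**Figure D3:**
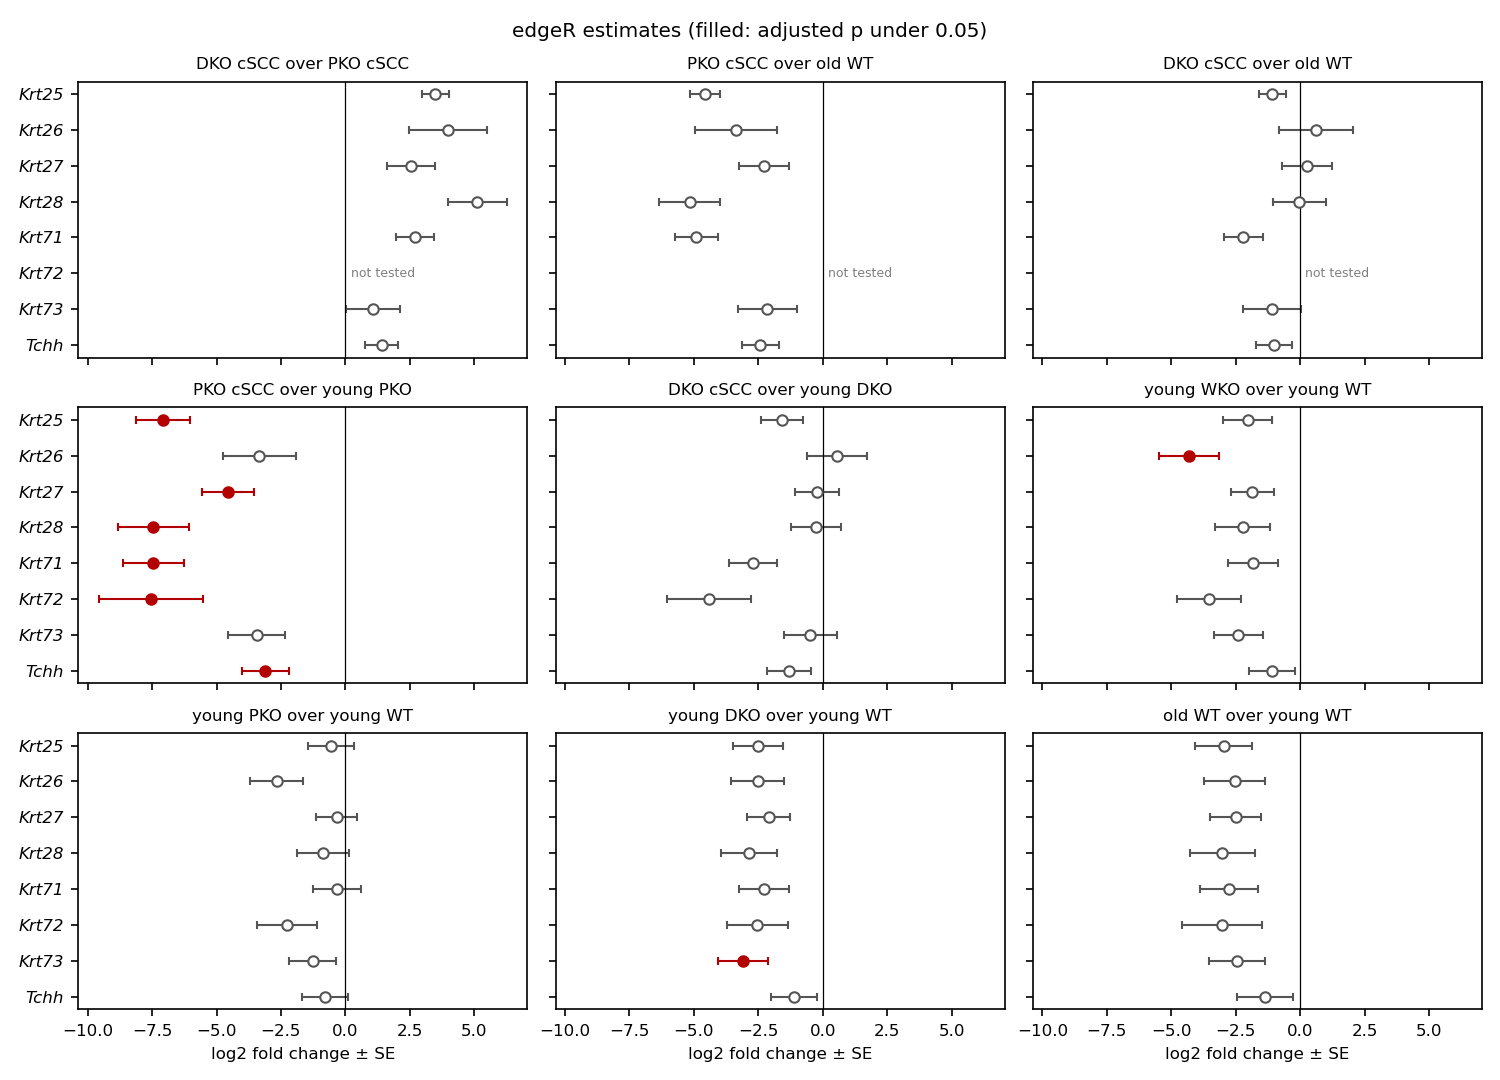
Log2 fold change with its SE for each of the 8 genes in 9 comparisons, from edgeR; filled red points have an adjusted p under 0.05 over all genes tested. The 6 calls in PKO cSCC over young PKO, the Krt26 call in young WKO and the Krt73 call in young DKO are the filled points, and the point for Krt72 in PKO cSCC over young PKO is a fitted value against libraries at 0, not a bound.

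In young epidermis, all 3 genotypes had fitted values below wild type for each member, and few passed the threshold. In young WKO against young WT, 1 of 8 members fell, beside 8.34% of 16627 genes: Krt26, with a log2 fold change of -4.32 (SE 1.15, edgeR adjusted p = 0.0279). Its call was lost without young WKO 2 or 3 (adjusted p 0.0898 and 0.0958) and without young WT 2 or 3 (adjusted p 0.0659 and 0.0724). Krt72 was at -3.53 (adjusted p = 0.0661), Krt73 at -2.40 (adjusted p = 0.0894), Krt25 at -2.04 (adjusted p = 0.135) and Tchh at -1.09 (adjusted p = 0.391). For 6 members the WKO libraries all lay below the WT libraries, as they did for 25.4% of all genes. The median over the 8 was -2.14, beside -0.03 over all genes.

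In young DKO against young WT, 1 of 8 members fell, beside 12.1% of 16627 genes: Krt73, with a log2 fold change of -3.10 (SE 0.98, edgeR adjusted p = 0.0391). Its call was lost without any single young DKO library (adjusted p 0.0908 to 0.104) and without young WT 2 or 3 (adjusted p 0.109 and 0.07). Without the library labelled young DKO 3 and the other libraries against their labels it was at -2.78 (adjusted p = 0.0715). Krt25 was at -2.51 (adjusted p = 0.0727) and Krt28 at -2.85 (adjusted p = 0.0732), and 6 members had no overlap, as did 24.7% of all genes in that direction. DESeq2 called 6 members, a count without its share of all genes beside it.

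In young PKO against young WT, 0 of 8 members were called, beside 0% of all genes called lower, and no member lay below with no overlap, against 14.2% of all genes. Krt26 was at -2.67 (adjusted p = 0.145), Krt25 at -0.57 (SE 0.90, adjusted p = 0.724) and Krt71 at -0.32 (SE 0.93, adjusted p = 0.854). At an unadjusted p under 0.05 there was 1 member, beside 9.74% of all genes, and DESeq2 called 1, in each case Krt26. With young PKO 1 as the only PKO library, Krt25 was at -2.37 (adjusted p = 0.255) and Tchh at -2.35 (adjusted p = 0.259), so these estimates rest on the libraries labelled young PKO 2 and 3. The 3 genotypes share the young WT libraries.

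In old WT against young WT, 0 of 8 members were called, beside 0.261% of 17622 genes. The log2 fold change was negative for all 8, from -1.36 (SE 1.09) for Tchh to -3.04 (SE 1.56) for Krt72, with Krt25 at -2.97 (SE 1.11, edgeR adjusted p = 0.145) and Krt71 at -2.75 (SE 1.12, adjusted p = 0.175). For 6 members the old libraries lay below all young ones, as for 21.2% of all genes. At an unadjusted p under 0.05 there were 5 members, beside 9.09% of all genes, and DESeq2 called 4 (Krt25, Krt27, Krt28 and Krt71).

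Genes that act with the sheath keratins were called in both directions. In PKO cSCC against young PKO, 4 of 13 such partners tested fell and 1 rose, beside 6.16% of all genes called lower and 5.33% called higher. Dsg4, a desmosomal cadherin of hair, fell by 6.29 on the log2 scale (edgeR adjusted p = 0.00657). Gata3, a transcription factor needed for the sheath, was at -1.73 (adjusted p = 0.0136) and Ovol1, a zinc finger repressor, at -3.29 (adjusted p = 0.0274). Tchhl1, a relative of trichohyalin, was at 0 in all 3 PKO cSCC libraries (adjusted p = 0.0396). Tgm3, a transglutaminase that crosslinks trichohyalin, rose by 3.89 (adjusted p = 0.0117). Of the 13, 0 were called in either direction without the libraries against their labels, beside 1.3% of 19565 genes lower and 0.419% higher, with Gata3 at -1.89 (adjusted p = 0.0541), Dsg4 at -4.15 (adjusted p = 0.134), Ovol1 at -2.51 (adjusted p = 0.176) and Tgm3 at 3.89 (adjusted p = 0.128). In DKO cSCC against young DKO, Gata3 (-1.89, adjusted p = 0.011) and Ovol1 (-4.06, adjusted p = 0.0164) fell and Tgm3 (3.24, adjusted p = 0.0284) rose among 13 tested, beside 4.03% of all genes called lower and 3.27% called higher. The same 3 genes were called without the 4 libraries against their labels (adjusted p 0.0149 to 0.0368).

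In young DKO against young WT, 5 of 13 partners fell and 4 rose, beside 12.1% of all genes called lower and 15.8% called higher. Those that fell were Tchhl1 (-6.01, adjusted p = 0.0126), Dsg4 (-3.31, adjusted p = 0.0416), Padi3 (-2.94, adjusted p = 0.0356), a peptidylarginine deiminase, and the transcription factors Dlx3 (-2.86, adjusted p = 0.043) and Trps1 (-1.72, adjusted p = 0.0311). Those that rose were Ovol1 (5.24, adjusted p = 0.00619), Gata3 (1.86, adjusted p = 0.00803) and the cell adhesion genes Dsc1 (2.50, adjusted p = 0.01) and Cdsn (2.90, adjusted p = 0.0316). Without the libraries against their labels Tchhl1, Trps1 and the 4 that rose were still called, while Dsg4 (-2.97, adjusted p = 0.0858), Padi3 (-2.60, adjusted p = 0.0765) and Dlx3 (-2.64, adjusted p = 0.0713) were not. Tchhl1 (-4.33, adjusted p = 0.031) and Prdm1 (-3.34, adjusted p = 0.0168) fell and Gata3 (1.93, adjusted p = 0.0126) and Ovol1 (3.16, adjusted p = 0.0225) rose in young WKO against young WT, where 13.1% of all genes were called higher. Krt74, a further type II sheath keratin, did not exceed 0.518 CPM in any library.

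Keratins of the hair shaft, which the sheath encloses, were low in PKO cSCC. In DKO cSCC against PKO cSCC, 6 of 7 hair cortex and cuticle keratins tested were positive and 0 were called (4 had an unadjusted p under 0.05, beside 4.88% of all genes higher), with a median log2 fold change of 2.34. Krt35, an early cortex keratin, was at 23.6, 6.5 and 7.77 CPM in DKO cSCC and at 0, 0.812 and 0 CPM in PKO cSCC (log2 fold change 5.40, edgeR adjusted p = 0.608). In PKO cSCC against young PKO, Krt35 (-6.58, adjusted p = 0.0106) and Krt32 (-3.54, adjusted p = 0.02) fell among 12 tested, beside 6.16% of all genes, but neither was called without the libraries against their labels (Krt35 -4.51, adjusted p = 0.127; Krt32 -3.72, adjusted p = 0.0941). In young DKO against young WT, Krt35 (-3.59, adjusted p = 0.0392) and Krt86 (-5.42, adjusted p = 0.0207) fell among 10 tested, beside 12.1% of all genes. Without those libraries Krt86 was still called (adjusted p = 0.0236) and Krt35, at -3.17 (adjusted p = 0.062), was not. Of 58 keratin-associated protein genes measured, 1 to 8 passed the filter on low counts, and Krtap11-1 in young WKO against young WT (-6.01, adjusted p = 0.03) was the single call in 9 comparisons. Without the libraries against their labels more such genes passed the filter. Then 6 of 10 were called lower in young WKO against young WT, beside 12.1% of 18457 genes. In young DKO against young WT it was 1 of 10, beside 14% of all genes.

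Regulators of the hair matrix, from which the sheath grows, were called in both directions. In PKO cSCC against young PKO, 5 of 18 fell, beside 6.16% of all genes: Shh (-5.45, adjusted p = 0.00887), Wnt10b (-2.96, adjusted p = 0.00456), Bmp4 (-3.01, adjusted p = 0.02), Msx2 (-2.64, adjusted p = 0.0248) and Notch1 (-2.36, adjusted p = 0.00272). Without the libraries against their labels 1 of the 18 was called, Notch1 (-2.19, adjusted p = 0.0106), and Shh was at -4.43 (adjusted p = 0.104), Wnt10b at -2.52 (adjusted p = 0.0642), Bmp4 at -2.93 (adjusted p = 0.113) and Msx2 at -2.01 (adjusted p = 0.214). In young DKO against young WT, 5 fell and 5 rose, beside 12.1% of all genes lower and 15.8% higher, and the counts were also 5 and 5 without the libraries against their labels. Among them were Lef1, a Wnt effector, at -3.94 (adjusted p = 0.00993) and Bmp2, a secreted BMP ligand, at 2.14 (adjusted p = 0.0114). Among companion layer and infundibulum keratins, Krt75, which marks the layer next to the sheath, was at 151, 22 and 5.89 CPM in DKO cSCC and at 1.17, 0.464 and 0.115 CPM in PKO cSCC (log2 fold change 6.69, adjusted p = 0.608). In PKO cSCC against young PKO, 2 of these 7 keratins fell and 2 rose, beside 6.16% of all genes called lower and 5.33% called higher. Krt75 was among those that fell (-4.95, edgeR adjusted p = 0.02) and Krt6a among those that rose (6.49, adjusted p = 0.00258). The other called genes of this list are not named here. Without the libraries against their labels Krt75 was at -4.65 and Krt6a at 5.86. That fit holds young PKO 1 alone and cannot give the spread of its group.

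Several cell type marker lists differed between libraries along with the sheath genes, in either direction. T cell markers (7 of 7 measured, with no defining marker at 0 across a group) summed to 31 to 115 CPM in DKO cSCC and 19.9 to 49.7 CPM in PKO cSCC, and to 83.4 to 308 CPM in young DKO, 260 to 3321 CPM in young PKO and 47.6 to 912 CPM in young WKO. They summed to 142 and 374 CPM in old WT and to 1754 to 2425 CPM in young WT, and the highest value was that of the library labelled young PKO 3, which also held the most Krt71. Melanocyte markers (6 genes) summed to 345 to 485 CPM in young WT and to 10.8 to 177 CPM in all other libraries apart from the library labelled DKO cSCC 3, with 550 CPM. Erythrocyte genes (5) summed to 829 to 3495 CPM in young WT, to 220 CPM in the library labelled young PKO 3 and to at most 63.8 CPM elsewhere. Lists of other keratinocytes ran the opposite way in young WT. Suprabasal keratinocyte markers (7 genes) summed to 410 to 915 CPM in young WT and 929 CPM in the library labelled young PKO 3, below the 2403 to 13733 CPM of all other epidermis libraries, and outer root sheath and bulge markers (14 genes) summed to 769 to 1282 CPM in young WT and 1159 CPM in that library, below the 1596 to 7576 CPM of the others. The part of these lists in the differences of the sheath genes was not tested.

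**Figure D4:**
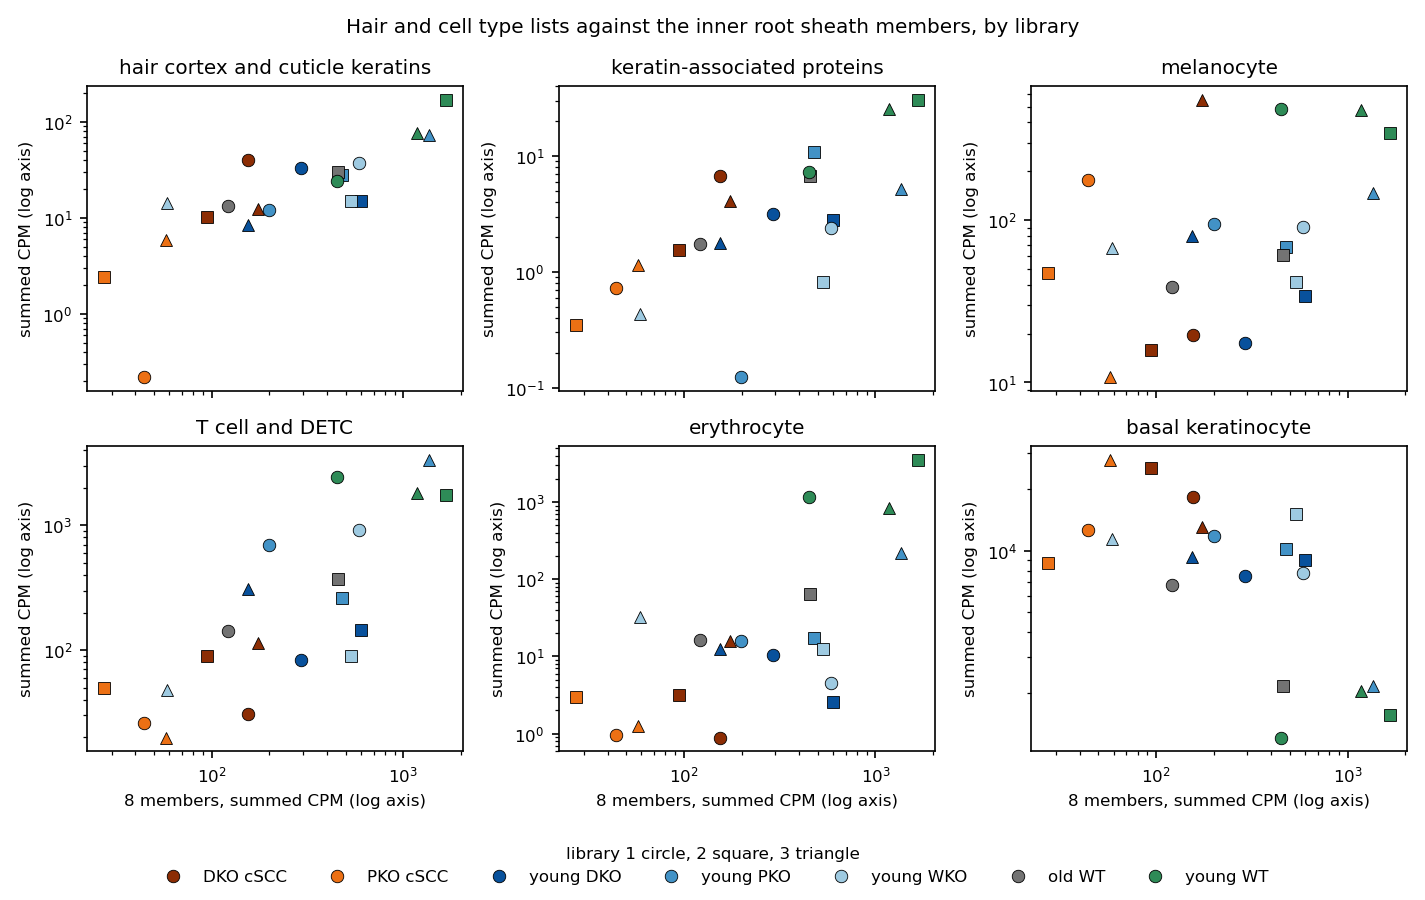
Summed CPM of 6 gene lists against the summed CPM of the 8 sheath genes, by library, on log axes; colours are groups and symbols are library numbers. The 3 young WT libraries and the library labelled young PKO 3 hold the 4 highest sums in the T cell and erythrocyte panels, and in the basal keratinocyte panel they lie with old WT 2 at 1216 to 2166 CPM, below all other libraries.

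Genes whose log2 levels ran most like the mean standardised log2 profile of the 8 members were sought among 14989 genes over the 20 libraries, which share the contrast between tumour and epidermis. The closest were Cdh6, a cadherin (Pearson r = 0.92, Spearman rho = 0.91), Prr9 (r = 0.92, rho = 0.91), Dsg4 (r = 0.91, rho = 0.87), Tgm6, a transglutaminase (r = 0.90, rho = 0.95), Slc30a1, a zinc transporter (r = 0.89, rho = 0.81) and Msx2 (r = 0.88, rho = 0.82). Il2rb (r = 0.88), Krt35 (r = 0.87), Cd2 (r = 0.87) and Cd96 (r = 0.86) completed the closest 10, and Il2rb, Cd2 and Cd96 are lymphocyte receptors. Cdh6 averaged 4.18 CPM in DKO cSCC and 0.72 CPM in PKO cSCC, and Tgm6 averaged 0.149 CPM in DKO cSCC and 0.0192 CPM in PKO cSCC, against 37.8 and 11.1 CPM in young WT.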

How the data were processed

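The deposited table held whole-number estimated counts (expected counts) of 51123 Ensembl genes in 20 libraries. Per the labels, a stranded kit for total RNA was used on 5 ng per library. Salmon 0.13.1, FastQC 0.11.5, DESeq2 1.28.1, Trim Galore 0.4.1 and build mm39 are listed, with no role or order, in the submitters' processing notes. Reads shared by near-identical keratins were divided by that estimation, so levels of the paralogs carry that uncertainty. Symbols were found for 48246 identifiers in GENCODE M21, which gave names, chromosomes and transcript lengths only.

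edgeR 4.0.16 in R 4.3.3 was run with TMM scaling, filterByExpr, the quasi-likelihood F test and Benjamini-Hochberg adjustment at 0.05 over all genes tested. The carcinomas and old WT shared a fit of 8 libraries, the young groups a fit of 12, old against young WT a fit of 14, and carcinoma against young epidermis a fit of 20. CPM were scaled over all 20 libraries, with 1 CPM added before the log2 of the likeness measure. SE are of the fitted log2 fold change.

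The edgeR steps were tested on simulated counts, with changes placed in genes of higher mean level than Krt26 and Krt72 and the same spread for every gene. That test does not cover genes as low, or as variable within groups, as several members. Alternatives were the replicate block, RLE scaling, no filter, DESeq2 1.42.0, other sets of libraries and each library left out. Removal of libraries against their labels was added after seeing the data. The members and gene lists were chosen with earlier results of these data known. Named were all members, the 10 genes most like the members and a part of the hair list genes. For the hair lists the plan was up to 4 genes with the smallest p per comparison. Some called genes, among them matrix regulators and companion layer and infundibulum keratins, are counted but not named. Krt85 was not analysed here.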

Additional observations from a re-analysis of the deposited data

How the results depend on the processing

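Of 804 alternative values of 69 member fold changes, 709 kept their direction and their side of the threshold, 32 lost a call, 44 gained one and 19 changed sign, 0 of these with a call in either setting. The number of members called depended on the tool and the filter. With no filter on low counts it was 3 in DKO cSCC against PKO cSCC, 4 in PKO cSCC against old WT, 1 in DKO cSCC against old WT, 1 in DKO cSCC against young DKO, 2 in young WKO against young WT and 3 in young DKO against young WT. DESeq2 called 3 in DKO cSCC against PKO cSCC, 4 in PKO cSCC against old WT, 2 in DKO cSCC against young DKO, 3 in young WKO, 1 in young PKO and 6 in young DKO against young WT, and 4 in old against young WT. With all 20 libraries in the fit, 3 were called in PKO cSCC against old WT, and with only the 2 groups, 0 in PKO cSCC against young PKO. Without the libraries against their labels 2 were called in PKO cSCC against old WT, beside 1.62% of 16214 genes called lower. In young DKO against young WT it was 0, beside 14% of 18457 genes. Leaving out each library gave 0 to 1 calls in PKO cSCC against old WT, 4 to 7 in PKO cSCC against young PKO, and 0 to 1 in young WKO and in young DKO against young WT. Shares of all genes called stand here only beside counts without the libraries against their labels, so the other counts lack a background. The cause of these shifts was not tested. Without the libraries against their labels the difference of the DKO over PKO fold change between carcinoma and young epidermis was -0.0062 for Krt73 and -0.52 for Tchh, against 2.94 and 1.80 with all 20 libraries.

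The replicate numbers gave no sign of pairing the samples. Deviations from the group mean of same-numbered libraries correlated at -0.50 to 0.41 (median -0.04, 10 of 57 pairs over 0.1). Those of differently numbered libraries correlated at -0.49 to 0.59 (median 0.03, 41 of 114 pairs over 0.1). A shared batch was not tested. With the replicate block, 0 members were called in young DKO against young WT, the Krt26 call in young WKO (adjusted p = 0.0574) and the Tchh call in PKO cSCC against young PKO (0.0631) were lost, and Krt72 was called in young WKO (0.046).

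Fold changes that changed sign had main values between -1.01 (Tchh) and 0.62 (Krt26). In DKO cSCC against old WT, Krt28 was at 0.26 with the block and 0.25 without the libraries against their labels, and leaving out single libraries gave log2 fold changes of -0.66 to 0.45 for Krt28, -1.90 to 1.16 for Krt26, -0.81 to 1.20 for Krt27 and -1.75 to 0.68 for Tchh. In DKO cSCC against young DKO the same step gave -1.94 to 1.17 for Krt26, -1.26 to 0.13 for Krt27 and -0.87 to 0.37 for Krt28, and in young PKO against young WT it gave -1.50 to 0.16 for Krt27 and -1.79 to 0.20 for Krt71. Leaving mitochondrial genes out of the library size, with no TMM scaling, gave a higher summed level in every group. It was 194 CPM in DKO cSCC, 62.6 CPM in PKO cSCC and 1978 CPM in young WT. Elsewhere it was 452 CPM in young DKO, 1056 CPM in young PKO, 576 CPM in young WKO and 454 CPM in old WT. Counts of Krt26 and Krt72 were too low in the carcinomas for their differences to be measured closely.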
